A study of Mus musculus with 185 samples.

Results

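Cells that carried a Postn lineage mark were compared with cells that carried none and were labelled negative for Postn mRNA, all from infarct tissue and all in 1 single-cell capture. The members were chosen by label: within the capture whose cell names begin with Jul29, 27 cells were labelled as activated, Postn-traced and Postn-positive, and 24 as activated and Postn-negative. These 51 cells were part of 57 in the capture and of 185 in the series, and the other 6 cells of the capture carried no trace but were labelled Postn-positive. The comparison covered the whole deposited table in both directions, beyond the short list of myofibroblast genes in the study's figure of them.

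The study followed fibroblasts and myofibroblasts of the injured mouse heart with inducible Cre alleles. All 3 classes came from Postn MCM/+; R26-eGFP mice, in which a tamoxifen-inducible MerCreMer enzyme is inserted in the Postn locus and a Rosa26 reporter makes eGFP after recombination, so that the negative cells carried both alleles too. The labels give C57BL/6 (backcross N=6), where the methods give C57Bl/6J and another number of generations, and an age of about 5 months. The mice received tamoxifen in their chow and a permanent ligation of the left coronary artery, and the infarct region was taken 7 days after the operation. Endothelial and blood cells were sorted away by CD31 and CD45, single cells were caught on a Fluidigm C1 chip, and eGFP was scored there by microscopy. The mark records that Postn was transcribed while tamoxifen was present, and recombination is not complete, so a cell without eGFP may have transcribed Postn. The labels tie no cell to a mouse, so each class was 1 sample, no test was made, and the SD between cells is a description.

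Periostin, the product of Postn, is a matricellular protein: it is secreted into the matrix and binds collagen and integrins there. In the healthy adult heart it is nearly absent outside the valves, and after infarction it marks fibroblasts that have become myofibroblasts, which lay down and cross-link the scar and contract through stress fibres that contain smooth muscle actin. Resident cardiac fibroblasts are known for the transcription factor Tcf21, the receptor Pdgfra and the collagen-binding proteoglycan decorin.

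Values are the deposited log2 (TPM+1), where TPM is a gene's share of the transcripts of its cell on a common scale, and detection means more than 5 TPM. Reads per cell are not in the files, so genes above that minimum were counted in each cell in place of depth. Their number ran from 2155 to 4541 in traced cells, with a median of 3643. In negative cells it ran from 1809 to 4881, with a median of 2342, a difference of medians of 1301 genes. The classes therefore differed in how many genes a cell showed before any single gene was compared. Of the 27 traced cells, 22 had more genes than the second-highest negative cell, which had 3049. A single negative cell was above the traced median. No value in the files shows how much of a difference in any gene comes from this, so the counts, the lists and those genes that move most are also given for 8 pairs of cells matched within 10% of their number of genes, with medians of 2449 traced and 2444.5 negative. The traced median in these pairs lay below the 3643 of the whole class. The study's methods report more transcripts in activated than in quiescent resident cells. Whether gene number here stood for depth or for the state of the cells was not tested.

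Genes of the sex chromosomes also differed between the classes. Xist, the RNA of the inactive X chromosome, was above 5 TPM in 11 of 27 traced cells (40.7%, exact 95% Clopper-Pearson interval 22.4% to 61.2%, for counting error only). It was above it in 0 of 24 negative cells, which allows a share of up to 14.2%. At least 1 gene of the Y chromosome, out of Uty, Kdm5d, Ddx3y and Eif2s3y, was above 5 TPM in 10 traced cells (37%, 19.4% to 57.6%) and in 17 negative cells (70.8%, 48.9% to 87.4%). No cell held both, and 6 traced and 7 negative cells held neither. The traced class thus held cells with the mark of either sex, and no negative cell showed Xist. Animal and class cannot be told apart for the female cells, so values are also given for cells with a Y-linked gene alone, 10 traced and 17 negative.

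The cells were checked against 9 lists of 6 marker genes for cell types. At least 3 fibroblast markers were above 5 TPM in all 27 traced cells and in 23 of 24 negative cells. At least 1 endothelial marker was above 5 TPM in 5 traced and 8 negative cells, with Tek the most abundant and Kdr at 0 throughout; Pecam1, the gene of CD31, was detected in 0 traced and 2 negative cells. At least 1 myeloid marker was detected in 4 traced cells and 1 negative cell, with Ptprc, the gene of CD45, and Emr1 at 0. The highest value of Pecam1 was 8.36 in a negative cell and 1.30 in a traced cell, so that single negative cells held a transcript of the sort markers. Lymphoid markers, of which 3 are listed, were detected in no cell. Pericyte markers were detected in 5 traced and 2 negative cells, with Rgs5 and Kcnj8 at 0, and Schwann cell markers in 7 and 6, mainly through Cdh19. Smooth muscle markers were detected in 22 traced and 11 negative cells, chiefly through Acta2 and Smtn. Cardiomyocyte markers were detected in 3 traced and 6 negative cells and epicardial markers in 2 and 1.

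A few single cells stood apart. The negative cell with the most genes, 4881, had all 6 epicardial markers above the minimum, among them Wt1 at 8.46, Upk1b at 7.93, Msln at 9.29, Krt19 at 9.83 and Krt8 at 9.35. It also held Fn1 at 9.25, Cthrc1 at 8.40 and Mfap2 at 7.32, with Tcf21 at 0 and Postn at 1.6. Another negative cell had 4 cardiomyocyte markers, with Myh6 at 5.89 and Tnnt2 at 5.75. A traced cell had 3 smooth muscle markers, with Acta2 at 9.66 and Lmod1 at 5.25, and Myh11 at 0. Both negative cells fell among the 8 matched pairs, and the counts without them are given below.

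The table lists 17171 genes, of which 14876 had a value over 0 in at least 1 of the 51 cells and 13303 were above 5 TPM in at least 1. Described here are 5079 genes that passed 5 TPM in at least 20% of the 51 cells, a filter that does not use the class. Among them 638 genes (12.6%) had a class mean more than 2 log2 units higher in traced cells and 100 genes (1.97%) a class mean more than 2 lower. Of the 638, 11 were among the study's myofibroblast genes and 627 were not, and none of the 100 was. Without Postn, whose mRNA the labels used, 10 of that list's other 13 genes were higher and 0 lower, with a median of 3.29 in all cells, 3.56 in cells with a Y-linked gene and 2.38 in matched pairs, where 7 were higher and 0 lower. The labels place the negative cells in the study's own figure of these genes, so the list's counts and medians are no independent support. The median difference over all 5079 genes was 0.75, and 3920 genes (77.2%) were higher in traced cells. The whole distribution was thus shifted toward the traced class, the class with more genes detected per cell. Measured from that median, 220 genes (4.33%) were more than 2 log2 units higher and 210 (4.13%) more than 2 lower.

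Gene lists are given below by their counts past 2 log2 units among members that passed the filter, and by their median over all listed members, whether or not they passed. Over all 14876 genes with a value, passed or not, the median difference was 0.23. That value is a nearer comparison for a list's median than the 0.75 over genes that passed. The counts stand beside 12.6% higher and 1.97% lower among all genes that passed. In matched pairs these shares were 8.47% and 10.7%, and in cells with a Y-linked gene 18.9% and 3.17%.

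How many genes lay on each side depended on the scale and on the cells. Higher genes made up 86.4% of those past 2 log2 units in all cells, 51.2% relative to the median gene, 63.9% when TPM was averaged before taking the log, and 44.1% in the matched pairs. In the cells with a Y-linked gene, 961 genes were higher and 161 lower, with a median of 0.75. In the matched pairs 430 were higher and 544 lower, with a median of -0.06. The excess of higher genes was therefore present within male cells and absent between cells of like gene number. Whether gene number stood for depth was not tested. The cells with a Y-linked gene differed in gene number too, with medians of 3910 traced and 2372 negative. That difference of 1538 was wider than the 1301 in all cells. Without the pair of negative cells with markers of another cell type, 752 genes were higher and 94 lower in all cells, and 533 higher and 681 lower in 7 matched pairs. Of the 638 higher genes, 504 (79%) were past 2 in cells with a Y-linked gene as well and 231 (36.2%) in matched pairs, and of the 100 lower genes 83 and 73. The genes past 2 in all cells, in cells with a Y-linked gene and in matched pairs numbered 193 higher and 62 lower.

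**Figure D1:**
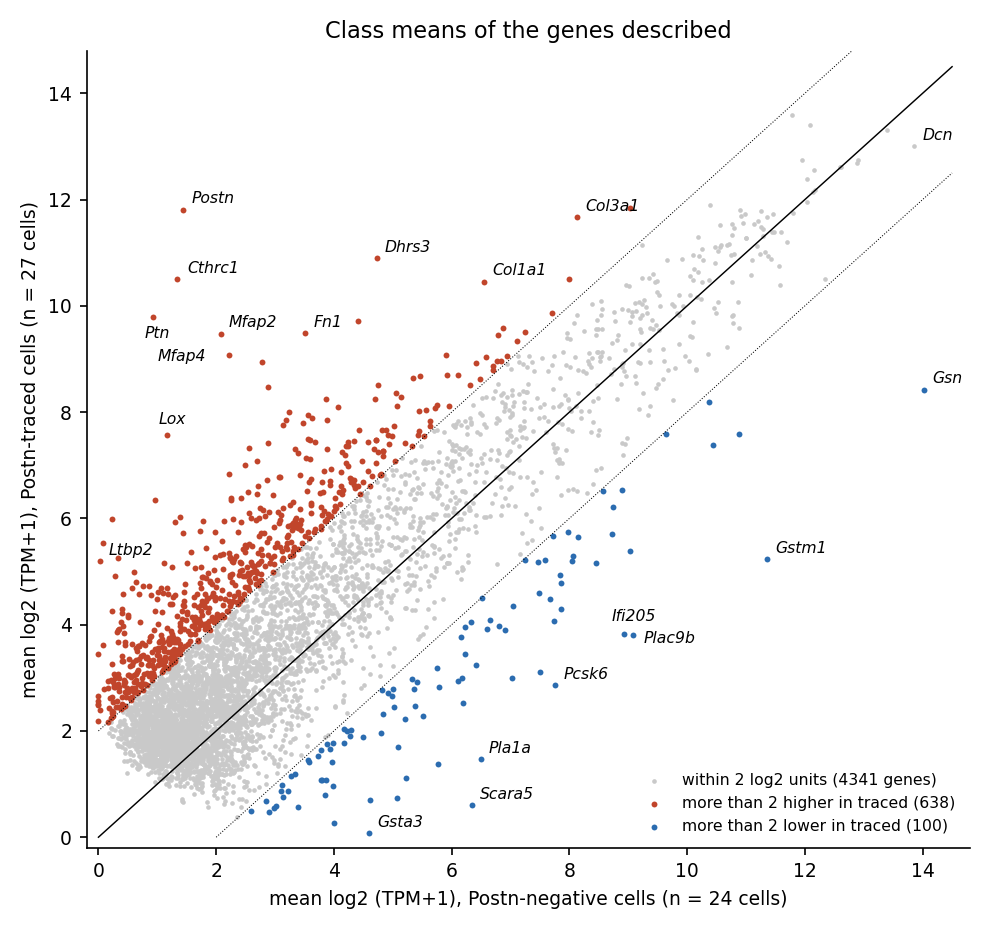
Class means of 5079 genes in log2 (TPM+1), with 24 negative cells on the horizontal axis and 27 traced cells on the vertical axis; the solid line marks equal means and the dotted lines 2 log2 units either way. The 638 higher genes lie mostly at low means in negative cells, and the 100 lower genes include Gsn, Gstm1 and Scara5.

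Most differences were small beside the variation between cells. Within 0.5 log2 units lay 1462 genes (28.8%), and past 4 lay 43 higher and 13 lower genes. A difference larger than the SD between cells in each class was found for 85 of the 638 higher genes and 14 of the 100 lower genes. In only 1 gene of 5079 (0.0197%) did the cells of the classes not overlap, and that gene was Postn, which the labels used. Postn was 9.6 to 14.08 in traced cells and 0 to 4.41 in negative cells. By the minimum used here, 3 of the 24 cells labelled negative detected it, at 2.59, 3.42 and 4.41. Since the negative class was chosen for lacking this mRNA, the difference of 10.37 is not a result. In 4 groups of like size ordered by mean level, the median difference was 0.60 in the lowest and 0.74, 0.90 and 0.80 in those above it, so the shift was present at every level. The group with the highest means held 234 of the higher and 49 of the lower genes.

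Shares of cells showed a general shift with few sharp contrasts. More traced than negative cells, by share, detected 4084 genes, and the reverse held for 845, with a median difference of 13 percentage points. A gap of more than 50 points was found for 69 genes in the traced direction and for 4 in the other, Scara5, Arl4a, Gsta3 and Pla1a. Only traced cells were above the minimum for 15 genes, and only negative cells for 1, Gsta3. Each of these passed the filter through 1 class alone, and 8 of the 15 were above the minimum in 11 traced cells. Among the 15 were Cilp, Ltbp2, Ddah1 and Col11a1. Where these or Gsta3 count in a list below, their count is no support, since the class where they are high let them pass. At the other end, 113 genes were above the minimum in all 51 cells, with a median difference of 0.29. Of these, Col1a2 was 2.81 higher (1.23 in matched pairs) and Gsn 5.60 and Pmp22 2.18 lower in traced cells; the last was named after its value was seen.

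**Figure D2:**
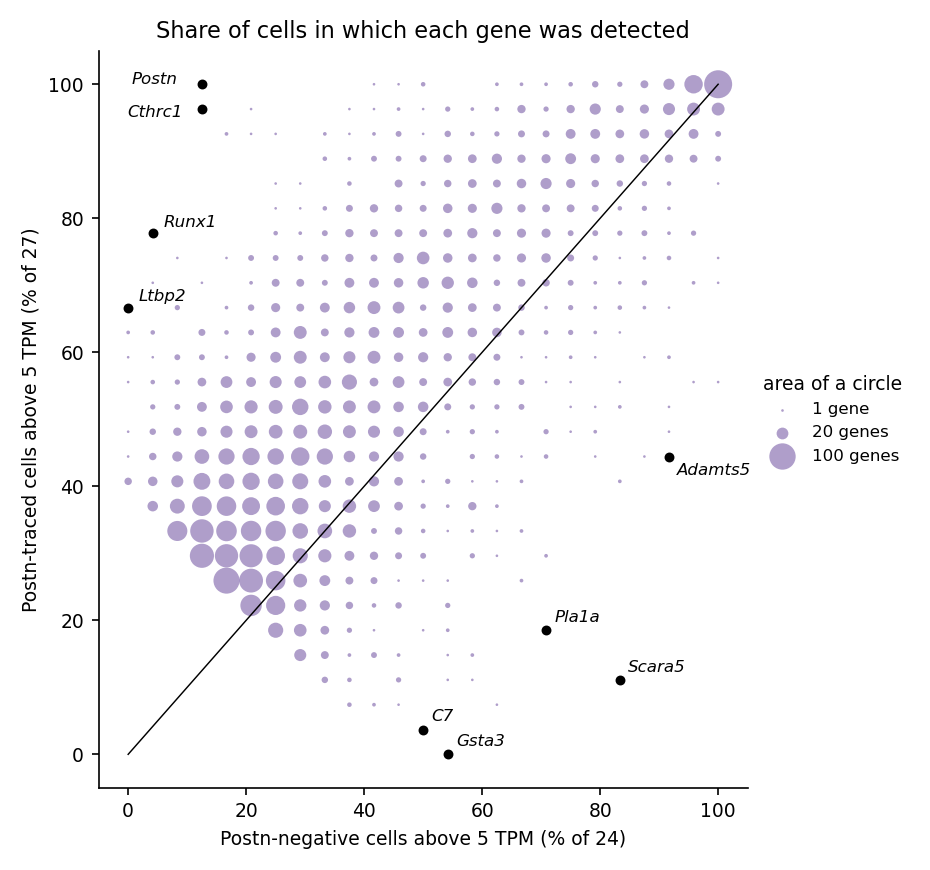
Share of the 24 negative cells (horizontal) and of the 27 traced cells (vertical) in which each gene was above 5 TPM, in percent, with the area of a circle showing how many genes share a position; the line marks equal shares. Most circles lie above the line, Postn and Cthrc1 lie at the upper left, and Scara5 and Gsta3 lie at the lower right.

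Promoters are shown for Postn, the locus that carries the Cre allele, and for 1 gene from each side of the comparison, Mfap2 and Gstm1. They come from RefSeq on GRCm38.p6, cover 300 bases around a start site, and are written 5′ to 3′ with a motif match in capitals. Each of the 3 genes has 2 start sites in that table, and the site with a match is printed. In Postn, at chr3:54360857-54361156 on the + strand, the capitals mark TATAAA, the letters of the TATA box. In Mfap2, at chr4:141010174-141010473 on the + strand, they mark GGAATG, the core of TEAD sites, and in Gstm1, at chr3:108017769-108018068 on the - strand, TATAAA again.
Postn: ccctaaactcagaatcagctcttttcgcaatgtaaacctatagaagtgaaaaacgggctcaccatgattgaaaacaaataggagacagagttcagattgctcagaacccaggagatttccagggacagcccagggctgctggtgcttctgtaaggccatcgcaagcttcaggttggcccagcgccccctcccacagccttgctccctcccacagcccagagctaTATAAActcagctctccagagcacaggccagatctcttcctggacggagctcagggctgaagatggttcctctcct
Mfap2: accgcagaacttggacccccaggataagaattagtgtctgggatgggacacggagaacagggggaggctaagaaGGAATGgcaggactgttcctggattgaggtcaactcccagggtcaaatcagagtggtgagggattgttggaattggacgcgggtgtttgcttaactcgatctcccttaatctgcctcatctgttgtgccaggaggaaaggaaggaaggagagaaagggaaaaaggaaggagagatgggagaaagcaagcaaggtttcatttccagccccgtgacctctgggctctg
Gstm1: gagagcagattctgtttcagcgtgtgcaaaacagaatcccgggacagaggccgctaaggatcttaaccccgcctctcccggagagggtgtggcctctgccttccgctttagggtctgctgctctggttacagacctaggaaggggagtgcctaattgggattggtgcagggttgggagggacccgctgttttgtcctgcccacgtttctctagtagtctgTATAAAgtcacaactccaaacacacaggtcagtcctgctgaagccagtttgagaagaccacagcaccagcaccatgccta
Both strands were searched for these letters and for TGANTCA, the AP-1 core. Promoters were found for 456 of the 638 higher genes, 72 of the 100 lower genes and 3714 of the 5079 genes described, fewer than 80% of each, so a comparison of motif shares between these groups is void. Over all 27025 genes with a promoter in the table, TATAAA was in 15.7%, GGAATG in 16.6% and TGANTCA in 8.97%. A match is only a run of letters and says nothing of a factor at the site.

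After Postn, Cthrc1 and Ptn lay farthest on the traced side. Cthrc1, a collagen triple-helix repeat protein of healing tissue, ran from 1.85 to 13.15 in traced cells with a median of 10.85, and from 0 to 9.27 in negative cells with a median of 0. Its class means were 10.51 ± 2.49 and 1.33 ± 2.68 (SD between cells), a difference of 9.18. It was detected in 26 of 27 traced cells (96.3%, interval 81% to 99.9%) and in 3 of 24 negative cells (12.5%, 2.66% to 32.4%). The overlap came from 7 negative cells above the lowest traced cell and 2 traced cells below the highest negative cell. The difference was 10.52 among cells with a Y-linked gene and 7.19 in matched pairs. Ptn, the heparin-binding growth factor pleiotrophin, had a median of 10.36 in traced cells, which ran from 0 to 13.56, and of 0 in negative cells, which reached 9.32. Its difference was 8.87, with detection in 25 traced and 4 negative cells. The related factor Mdk, midkine, was 4.62 higher in all cells and 2.92 in matched pairs. Their binding partners, the syndecans, glypicans and others of a list of 12, were all within 2 log2 units, so that list had 2 genes higher, 0 lower and a median of 1.0, and 10 of its genes passed the filter. In matched pairs it had 2 higher, 1 lower and a median of 0.56.

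Elastic fibres are a core of elastin on a scaffold of microfibrils. Of 19 genes for them, 7 were higher and 1 lower, with a median of 0.78 in all cells and 1.15 in matched pairs, where 5 were higher and 1 lower, and 17 passed the filter. Mfap2, a microfibril protein of the study's own list, was 7.40 higher in all cells and 4.53 in matched pairs, and Mfap4, which binds elastin and collagen, was 6.87 higher. Mfap4 had a median of 10.53 in traced cells and of 0 in negative cells, where 6 of 24 detected it. Ltbp2, a fibrillin-binding protein, was above 5 TPM in 18 traced cells (66.7%, 46% to 83.5%) and in no negative cell (up to 14.2%), whose highest value was 0.79. Efemp2, needed for elastin assembly, was 4.67 higher in all cells and 1.75 in matched pairs, while its relative Efemp1 was 3.05 lower, so members of the fibulin family lay on opposite sides. Ltbp3 was 2.96 higher.

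Matricellular proteins bind the matrix and cells without building the scaffold. Of 23 such genes besides Postn, 8 were higher and 2 lower, with a median of 0.61, and 18 passed the filter. In matched pairs 6 were higher and 4 lower, with a median of 0. Fn1, fibronectin, ran from 7.09 to 10.77 in traced cells and from 0 to 9.25 in negative cells, and was 5.98 higher, with all 27 traced and 11 negative cells detecting it. Cilp, first known from cartilage, was 5.75 higher, and no negative cell reached the minimum. Tnc, tenascin C, was 4.93 higher in all cells and 3.13 in matched pairs, and Thbs2, a thrombospondin, 3.97 higher. On the other side, Smoc2 was 3.66 and Sparcl1 2.53 lower in traced cells, and both are secreted relatives of Sparc. The list thus divided rather than moving together.

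Of 11 fibrillar collagens, the rope-forming kind, 8 passed the filter, 6 were higher and 0 lower, with a median of 2.65 in all cells, 3.20 in cells with a Y-linked gene and 1.23 in matched pairs, where 4 were higher and 0 lower. Col1a1 was 3.90, Col3a1 3.55, Col5a1 3.85 and Col5a2 3.77 higher. Col11a1 was detected in 11 traced cells and was listed at 0 in all 24 negative cells, so it passed the filter through the traced class alone. The fibrillar collagens took a median of 1.08% of the summed TPM of a traced cell and 0.152% of that of a negative cell. Among 19 other collagens, 12 of which passed, 4 were higher and 1 lower, with a median of 0.43. In matched pairs none of them was higher and 3 were lower, and the median had the opposite sign, -0.37. The fibril-associated Col14a1 was 3.76 higher and Col12a1 2.65, the beaded-filament gene Col6a3 was 2.75 higher, Col8a1 was 2.98 higher, and Col4a3, of basement membrane, was 2.42 lower. None of these 4 was past 2 in the matched pairs, where Col14a1 was 1.76, Col12a1 1.53, Col8a1 0.75 and Col6a3 -0.46. Col11a1 was 1.92 there. In the list of 15 basement membrane genes none was higher and Lamb1, a laminin chain, was 2.01 lower in all cells and 1.66 lower in cells with a Y-linked gene, with a median of 0.00, and 11 passed the filter. In matched pairs 0 of them were higher and 5 lower, with a median of -0.60.

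Collagen chains are hydroxylated, folded, trimmed and cross-linked before they bear load. Of 27 genes for these steps 24 passed the filter, and 6 were higher and 0 lower, with a median of 1.07. In matched pairs 3 were higher and 5 lower, with a median of -0.10. In cells with a Y-linked gene 11 were higher and 1 lower. Lox, the cross-linking enzyme lysyl oxidase, was 6.41 higher and was detected in 25 traced and 4 negative cells. The collagen chaperone Fkbp10 was 3.97 higher, the prolyl hydroxylase subunit P4ha3 3.83 and the trimming protease Bmp1 3.12. In matched pairs Fkbp10 was 1.61 and P4ha3 1.48, so both were under the threshold there. The lysyl hydroxylase Plod2 was 2.93 higher in all cells and -1.01 in the matched pairs. Ppic, a cyclophilin that isomerises proline bonds and was in none of the lists, was 5.30 higher. It was detected in every traced cell and in 12 negative cells.

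Of 19 matrix proteases and inhibitors 5 were higher and 2 lower, with a median of 1.09, and 14 passed the filter. In matched pairs 2 were higher and 3 lower, with a median of 0.25. The inhibitor Timp1 was 5.59 higher, whereas Timp3, which stays bound to the matrix, was 2.78 lower. The proteases Mmp14, Ctsk, Adam19 and Mmp19 were higher, by 3.44, 3.82, 2.48 and 2.18, and Adamts5, which cleaves aggrecan and versican, was 4.39 lower. Ctsk was -0.0044 in the matched pairs, so its difference did not hold at like gene number. Adam19 was 1.13 and Mmp19 1.94 there, and Mmp19 was 1.18 in cells with a Y-linked gene. The small leucine-rich proteoglycans, which coat collagen fibrils, had 1 gene higher, 1 lower and a median of -0.05 over 12, of which 7 passed. That was 0 higher, 1 lower and -0.47 in matched pairs. Aspn was 2.51 higher and Prelp 3.08 lower in all cells, and 1.69 higher and 1.68 lower in matched pairs. Dcn, decorin, was abundant in every cell, from 11.21 to 14.35 in traced and from 12.02 to 14.58 in negative cells. Its difference was -0.86, so a main transcript of fibroblasts was shared by both classes.

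**Figure D3:**
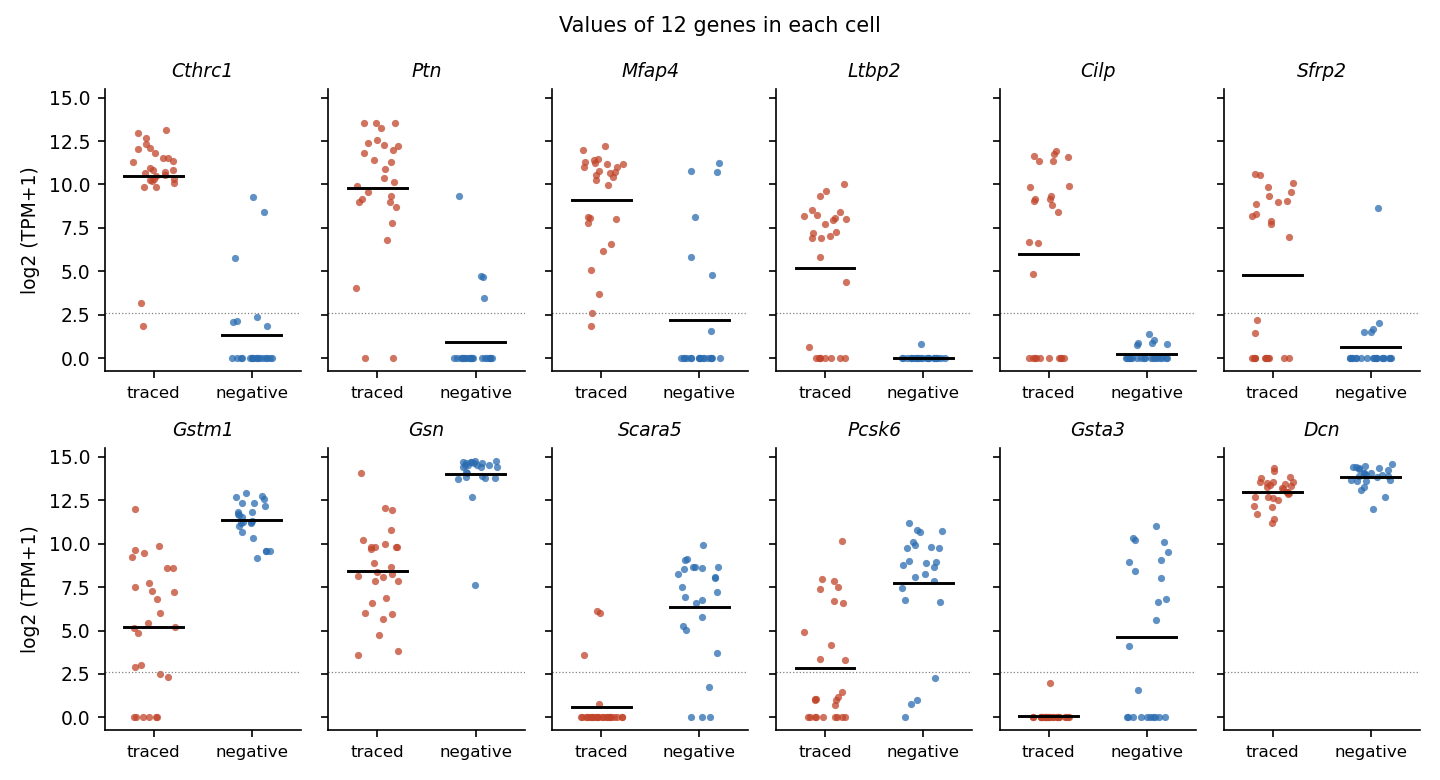
Values of 12 genes in each of 27 traced and 24 negative cells, in log2 (TPM+1), with bars at the class means and a dotted line at 5 TPM. Cthrc1, Ptn and Mfap4 were high in nearly all traced cells, Ltbp2, Cilp and Sfrp2 were divided within that class, and Gstm1, Gsn and Scara5 were high in nearly all negative cells.

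Other genes near the top were in none of the matrix lists. Dhrs3, an enzyme that reduces retinaldehyde to retinol, was 6.18 higher, with 26 traced and 12 negative cells above the minimum, and was 2.99 higher in matched pairs. The list of 14 genes of retinoid metabolism, to which it belongs, had 5 genes that passed, 2 higher, 0 lower and a median of 0.15, and 1 higher and 0 lower in matched pairs. Csrp2, a LIM protein of smooth muscle, was 6.16 higher in all cells and 6.55 in matched pairs. Ddah1, which breaks down methylarginine inhibitors of nitric oxide synthase, was detected in 17 traced cells and in no negative cell. C1qtnf6, a secreted protein of the C1q and TNF family, had a difference of 5.39 with 26 traced and 3 negative cells above the minimum, as sharp a split in detection as Cthrc1. The uncharacterised gene 4931406P16Rik was 4.29 higher, with 25 traced and 5 negative cells above the minimum.

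Of 21 contractile and smooth muscle genes 7 were higher and 0 lower, with a median of 0.86 in all cells and 0.05 in matched pairs, where 3 were higher and 1 lower, and 14 passed the filter. Acta2, smooth muscle actin and the classical mark of a myofibroblast, ran from 0 to 10.23 in traced cells with a median of 4.91. It was detected in 15 traced cells (55.6%, 35.3% to 74.5%) and in 3 negative cells (12.5%, 2.66% to 32.4%). Its difference was 3.29 in all cells and 0.81 in matched pairs. Close to as many traced cells were without detected Acta2 as with it. Tagln was detected in 14 traced cells and 1 negative cell and was 4.17 higher in all cells and 3.66 in matched pairs. Actn1, an actin cross-linker, was 4.78 higher in all cells and 0.53 in matched pairs, while the tropomyosin Tpm2 was 3.89 and 3.06 higher. Cnn2 was 3.78 higher in all cells and 2.99 in matched pairs, and Myl9 3.67 and 0.84.

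Of 24 genes of actin and focal adhesions 2 were higher, Arpc2 by 2.84 and Vcl by 2.24, and 0 lower, with a median of 0.55, and 22 passed the filter. In matched pairs Arpc2 was 0.05 and Vcl -0.56, 0 of the list were higher and 1 lower, and the median was -0.31. Of 15 matrix-binding integrins 5 passed the filter, none of these was past 2 log2 units, and the median over all 15 was 0.04, or -0.23 in matched pairs. In all cells the integrin nearest to the limit was Itga11, a receptor for fibrillar collagen, at 1.84. In cells with a Y-linked gene 2 integrins were past it, Itga11 at 2.52 and Itgav at 2.01. Vim, vimentin, was detected in every cell of both classes and differed by 0.60. The 9 genes listed of the S100 family, 6 of which passed, had none past 2, with a median of 0.22. In matched pairs 1 was lower and the median was -1.24.

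Signalling lists differed in how many members passed the filter. Of 24 genes for TGF-beta ligands, receptors and regulators 15 passed, 2 were higher and 0 lower, with a median of 0.35. In matched pairs 3 were higher and 0 lower, with a median of -0.25. Tgfb3, a ligand, was 4.64 higher with 20 traced and 4 negative cells above the minimum. Smad7, an inhibitor that the pathway itself induces, was 2.76 higher, and both were higher in matched pairs, by 3.22 and 2.01, though Smad7 was 1.79 higher in cells with a Y-linked gene. The list of 12 CCN and YAP or TEAD genes, 9 of which passed, had 2 higher, 0 lower and a median of 0.57 in all cells, and 2 higher, 0 lower and 0.33 in matched pairs. These were Wwtr1, which encodes TAZ, at 2.07 and Ctgf at 2.01, and Ctgf was 1.10 in matched pairs and -0.11 when TPM was averaged before taking the log. Wnt ligands and modulators, of which 20 are listed and 5 passed the filter, had 3 higher in all cells and 2 in matched pairs, and 0 lower in either. Each of these, Sfrp2 at 4.17, Dkk3 at 3.90 and Frzb at 3.06, is a secreted modulator of Wnt signalling. In matched pairs Frzb was 0.056, while Sfrp2 was 4.53 and Dkk3 2.88. Of the 20 listed, 15 did not pass the filter, and 5 were at 0 in all 51 cells. The median over 20 was 0.23.

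Of 6 genes listed under PDGF receptors and ligands 3 passed the filter and 2 were higher. These were Pdgfrl at 4.31, a receptor-like gene and not itself a PDGF receptor, and the receptor Pdgfrb at 2.16. Pdgfra was close in both classes, with a difference of -0.48 and with 24 traced and 21 negative cells above the minimum. In matched pairs Pdgfrl was 0.97 and Pdgfrb 0.59, so neither was past 2 there, and Pdgfrb was 1.72 in cells with a Y-linked gene. The IGF system had 1 of 11 higher, the binding protein Igfbp7 at 2.58, and 1 lower, Igfbp6 at -2.38, with a median of 0.50, and 6 passed. In matched pairs it had 0 higher and 1 lower. Igfbp7 was 0.43 in matched pairs and Igfbp6 -0.91 in cells with a Y-linked gene. Of 22 chemokines and cytokines 8 passed the filter and none of these was past 2. The median over all 22 was 0.22, and 1 was lower in matched pairs and 2 in cells with a Y-linked gene. Cxcl1 was detected in 21 cells of each class and was 1.53 lower in traced cells, less than its SD in either class. Il6 was detected in 9 cells of each, whereas Cxcl12 was detected in 16 traced and 6 negative cells. The difference of Cxcl12 was 1.66 in all cells, 0.53 in cells with a Y-linked gene and -0.91 in matched pairs.

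Runx1, a transcription factor known from blood and bone formation, was detected in 21 traced cells (77.8%, 57.7% to 91.4%) and in 1 negative cell (4.17%, 0.105% to 21.1%), a difference of 4.63 in all cells and 3.67 in matched pairs. Runx1 was in another list. Of 26 mesenchymal and cardiac transcription factors, 12 of which passed the filter, 3 were higher. These were Meox1 at 2.64, Foxp1 at 2.44 and Gata6 at 2.10. A single one was lower, Tcf21, and the median was 0.27, and in matched pairs 3 were higher and 2 lower. Gata6 was -2.43 in matched pairs and 1.63 in cells with a Y-linked gene. Meox1 was 2.60 in matched pairs and 4.77 in cells with a Y-linked gene. The cartilage and bone programme, with 22 genes listed and 6 kept, had 3 higher and 1 lower in matched pairs. In all cells it had 4 higher and 0 lower with a median of 0.15, and these were Cilp, Runx1, Col11a1 and the matrilin Matn2. Of these, Cilp and Col11a1 passed the filter through the traced class alone, so the count is no support. Matn2 was 0.40 in cells with a Y-linked gene. The cartilage collagen Col2a1 was at 0 in all 51 cells.

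Of 30 subunits of oxidative phosphorylation, all of which passed, 6 were higher and 0 lower. Their median was 1.37 in all cells, 1.38 in cells with a Y-linked gene and 0.21 in matched pairs. In cells with a Y-linked gene 13 were higher and 0 lower, and in matched pairs 2 were higher and 3 lower. Ndufa2, a subunit of complex I, stood out at 4.39, with all 27 traced and 12 negative cells above the minimum, and was 4.91 higher in matched pairs. The other 5 of the 6 were not past 2 there, with Cox5a at 1.5, Atp5a1 at 0.31, Ndufb9 at -0.24, Atp5c1 at -0.06 and Sdhb at -1.24. Of 16 glycolysis genes, 11 of which passed, 0 were lower and 3 higher, Ldha at 3.55, Pgam1 at 3.04 and Pgk1 at 2.94, with a median of 1.04. In matched pairs 1 gene of the list was higher and 2 lower, with a median of -0.15. There none of these 3 was past 2, with Ldha at 1.74, Pgam1 at 1.08 and Pgk1 at -0.54. Of 14 genes of lipid uptake and storage none was higher and 1 was lower, Lpl, lipoprotein lipase, at -2.84, with a median of 0.26, and 6 passed the filter. In matched pairs 1 was higher and 2 lower.

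Of 41 genes of ER folding and secretion 11 were higher and 0 lower, with a median of 0.57, and 39 passed the filter. In matched pairs 4 were higher and 9 lower, and the median was -0.42. Sec13, a coat protein of ER vesicles, was 3.84 higher, the signal peptidase subunit Spcs1 3.29 and the translocon-associated Ssr4 3.13. In matched pairs Spcs1 was 3.14, Sec13 1.33 and Ssr4 0.74. Of 42 cytosolic ribosomal proteins, all of which passed, 1 was higher, Rpl6 at 2.16 in all cells and 1.84 in matched pairs, and 0 lower, with a median of 0.61 in all cells and 0.44 in matched pairs, where 1 was higher and 1 lower. They took a median of 7.79% of summed TPM in traced and 5.98% in negative cells. Reads of ribosomal genes can be divided among their many near-copies, so single values are uncertain. Among genes within 0.5 log2 units between the classes, those with the highest means included Ubb, Actb, Ftl1, Eef1a1 and the mitochondrial Atpase6.

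Of 42 cell cycle genes 10 passed the filter, none of these was past 2 log2 units, the median was 0.04, 1 was lower in matched pairs, and Mki67 was at 0 in all 51 cells. The most abundant was the tubulin gene Tubb5, detected in 26 traced and 22 negative cells, which is not confined to dividing cells. Pcna, the sliding clamp of replication, was detected in 7 traced and 13 negative cells.

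On the negative side Gstm1 lay farthest. This gene, a glutathione transferase that conjugates electrophiles, ran from 9.18 to 12.90 in negative cells with a median of 11.42, and from 0 to 12 in traced cells with a median of 5.45. Its means were 5.23 ± 3.70 in traced and 11.35 ± 1.08 in negative cells, a difference of -6.12. It was -6.21 in the matched pairs and -7.01 in cells with a Y-linked gene. Negative cells were uniformly high and traced cells widely spread. Gsta3, of the same enzyme class, was above 5 TPM in 13 negative cells (54.2%, 32.8% to 74.4%) and in no traced cell, which allows up to 12.8%. Both belong to families with near-copies, among which reads could be divided. Of 34 glutathione transferases and antioxidant enzymes, of which 22 passed the filter, these 2 were lower and 3 higher, with a median of -0.07. In matched pairs 3 were higher and 6 lower, with a median of -0.29. The higher ones were the peroxiredoxins Prdx2 at 4.75 and Prdx4 at 4.53 and the lipid peroxidase Gpx4 at 2.13. In matched pairs Prdx2 was 4.4, Prdx4 2.12 and Gpx4 1.78.

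Gsn, gelsolin, which severs actin filaments, was the most abundant gene of the lower group. It ran from 7.63 to 14.76 in negative cells with a median of 14.49 and from 3.58 to 14.09 in traced cells with a median of 8.37. Every cell of both classes was above the minimum, so this difference of -5.60 was one of level and not of detection. It was -5.61 in matched pairs. Scara5, a scavenger receptor that takes up ferritin, was the reverse: its median was 7.35 in negative cells and 0 in traced cells. It was detected in 20 negative cells (83.3%, 62.6% to 95.3%) and in 3 traced cells (11.1%, 2.35% to 29.2%), a difference of -5.73 that was -4.40 in matched pairs. It had the widest gap in detection on the negative side.

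Both genes belong to a list of 26 fibroblast genes of the uninjured heart and adventitia, the outer coat of vessels. Of these, 25 passed the filter, and 14 were lower and 2 higher in traced cells, with a median of -2.19. That median was -2.21 in cells with a Y-linked gene and -2.03 in matched pairs, where 13 were lower and 1 higher. It was the lowest median of the 34 lists in all 3 choices of cells. The lists were chosen with earlier results of these data known and the 3 choices share cells, so this rank is no independent support. Tcf21, the transcription factor that marks resident fibroblasts, was detected in 13 traced and 19 negative cells, with a difference of -2.68 in all cells and -5.43 in cells with a Y-linked gene. Dpep1, a dipeptidase, was 3.66 lower in all cells and 1.16 in matched pairs, and Entpd2, which degrades extracellular ATP, 3.16 lower. Ly6c1 and the lipid transporter Abca8a were 4.39 and 4.02 lower, though each has near-copies in the genome. The higher members were Meox1 and Gata6. The list took a median of 0.939% of summed TPM in a traced cell and 3.74% in a negative cell, with Gsn the most abundant member in the latter.

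Further genes on this side were outside that list. Pcsk6, a proprotein convertase, had a median of 8.83 in negative cells and of 1.05 in traced cells, with 20 and 11 cells above the minimum. Its difference was -4.89 in all cells and -3.54 in matched pairs. Pla1a, a secreted phospholipase, was 5.02 lower, with 5 traced and 17 negative cells above the minimum. Pgf, placental growth factor, a VEGF relative, was 4.10 lower and C7, a component of the complement attack complex, was detected in 1 traced and 12 negative cells. In matched pairs C7 was -1.93. Plac9b was 5.28 lower and was above the minimum in every negative cell, but it has a near-identical copy. Hsd11b1, which regenerates active glucocorticoid, was 3.91 lower, Arl4a, a small GTPase, 4.33, and Acly, which makes cytosolic acetyl-CoA, 3.02. Their detection was divided within the negative class too, at 13, 15 and 14 of 24 cells, and Acly was -1.59 in matched pairs.

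In the lists of complement and interferon genes, every member that passed the filter and lay past 2 log2 units was lower in traced cells. Of 15 complement components and regulators 7 passed, 0 were higher and 2 lower, with a median of 0.00 over all 15, and 0 and 2 in matched pairs. The lower ones in all cells were Cd55, which protects cells from complement, at -2.90, and C3 at -2.03. C3 was 0.69 in matched pairs, the opposite sign. Serping1, the C1 inhibitor, was abundant in both classes and 1.82 lower. Of 38 interferon-stimulated genes 0 were higher and 4 lower, Ifi205 at -5.10, H2-D1 at -3.31, Irf1 at -2.85 and Ifi27l2a at -2.07, and 20 passed the filter. The median was -0.33 in all cells, -0.84 in matched pairs, where 0 were higher and 6 lower, and 0.022 in cells with a Y-linked gene. The sign of the list's median thus depended on the cells. The counts did not turn, with 0 higher and 6 lower in cells with a Y-linked gene. The median was 0.19 when each cell was centred on its own genes. H2-D1, of the class I antigen-presenting molecules, was above the minimum in all 24 negative cells, at 8.77 or more. Ifi205 and H2-D1 have close relatives in the genome that could share reads, and Ifi27l2a was 0.16 in cells with a Y-linked gene. In matched pairs Irf1 was -1.44 and Ifi27l2a -1.52.

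Immediate early genes, which are also switched on when tissue is digested into single cells, had a lower median in traced cells. Of 28, 24 passed the filter, and 4 were lower and 1 higher, with a median of -0.61 in all cells, -1.27 in cells with a Y-linked gene and -1.11 in matched pairs, where 5 were lower and 0 higher. The lower ones were Ier2 at -2.83, Klf4 at -2.36, Junb at -2.30 and Socs3 at -2.13, and the higher one was Ier3 at 2.04. Socs3 was 0.53 and Ier3 -0.03 in matched pairs, so neither kept its sign there, and Ier2 was -1.94. The part of cell isolation in these differences was not tested.

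**Figure D4:**
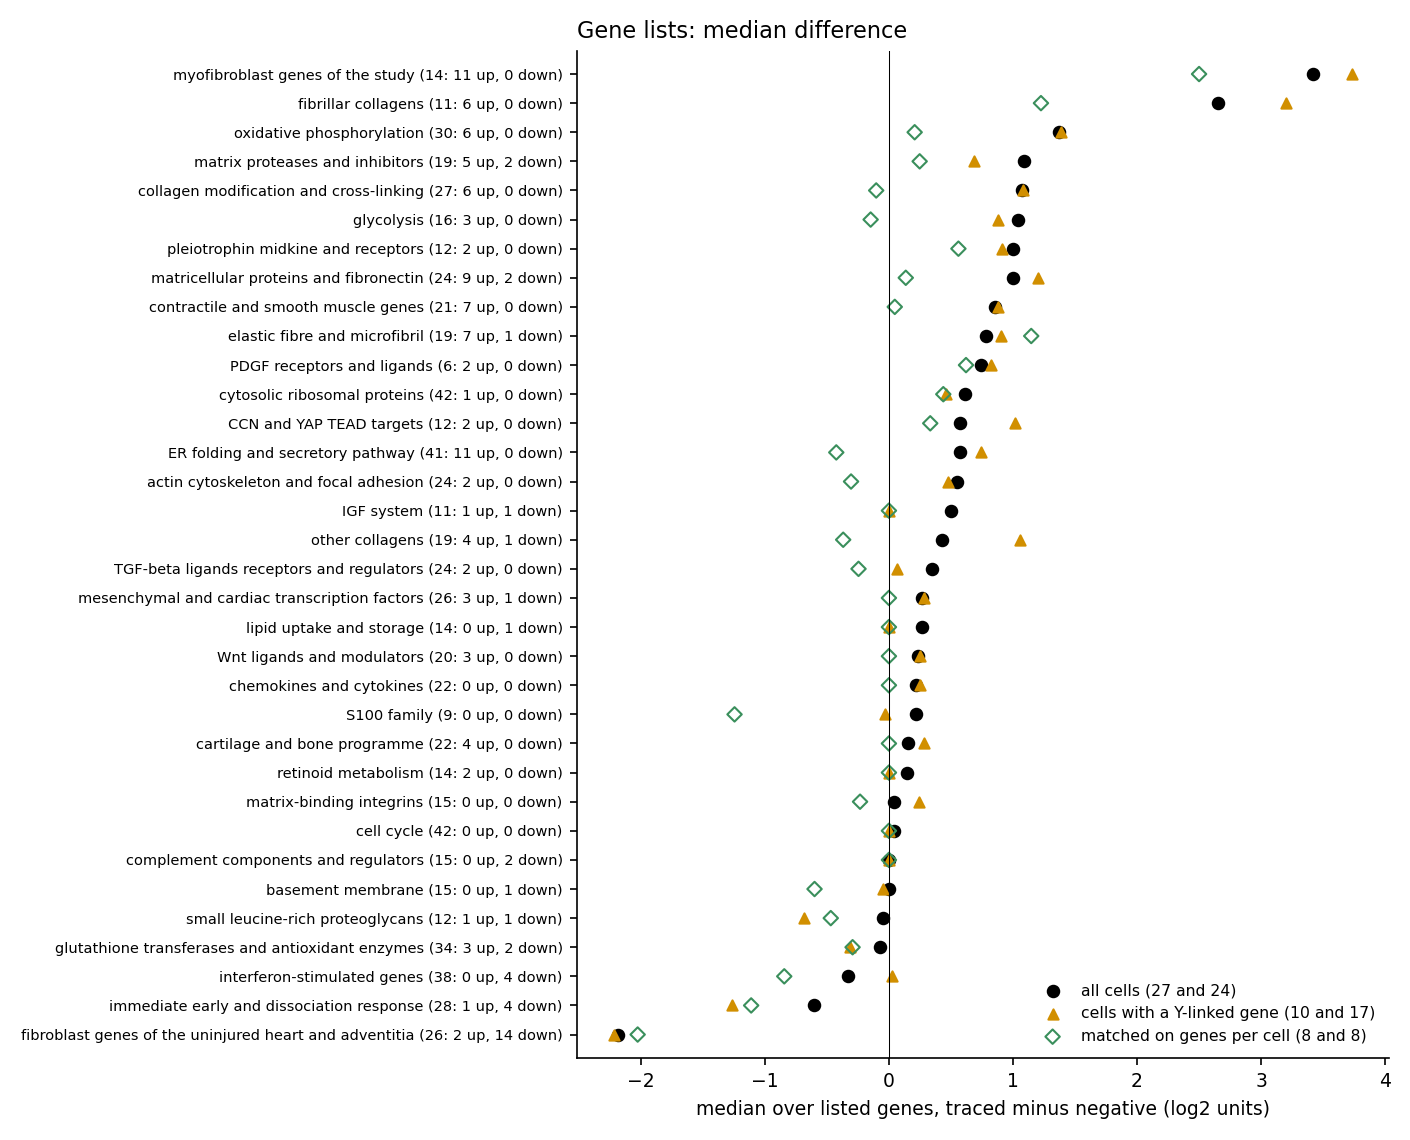
Median difference over the listed genes of 34 lists, traced minus negative, in log2 units, for all cells (circles), cells with a Y-linked gene (triangles) and matched pairs (diamonds); the vertical line marks 0, and each label gives the number of genes more than 2 log2 units higher (up) or lower (down) in all cells. The fibroblast genes of the uninjured heart lie near -2 in all 3, while the study's genes and fibrillar collagens lie to the right of it in all 3. The study's list and the matricellular list include Postn in this plot, and the medians include listed genes that did not pass the filter. The lists were chosen with earlier results of these data known.

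Traced cells varied among themselves. Cilp was above 5 TPM in 17 of 27 traced cells and at 0 in 10, and Sfrp2 was above it in 14 and at 0 in 11. Both were detected in 6 cells, Cilp alone in 11, Sfrp2 alone in 8 and neither in 2. Most traced cells thus had one of the pair and not the other, though whether the pair met less often than unrelated genes was not tested. The division went in part with the genes of the sex chromosomes, given here without the 6 traced cells that held neither mark. Mean Cilp was 3.54 in the 11 traced cells with Xist and 9.80 in the 10 with a Y-linked gene, and mean Sfrp2 was 6.54 and 1.98. Ddah1 followed Cilp, at 3.89 and 8.38, and so did Col11a1, at 0.87 and 4.70. Whether these differences belong to sex, to the mouse or to neither cannot be told apart here. Among cells with a Y-linked gene, the difference from negative cells was 9.56 for Cilp and 1.35 for Sfrp2. Acta2 and Tnc were detected together in 12 traced cells, Tnc alone in 7, Acta2 alone in 3 and neither in 5.

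How often genes of opposite sides met in a cell depended on the pair. Cthrc1 without Scara5 was the state of 24 traced cells, and Scara5 without Cthrc1 of 18 negative cells. Both were detected in 2 traced and 2 negative cells. With Tcf21 the separation was partial: 12 traced cells detected Cthrc1 and Tcf21 together and 14 Cthrc1 alone, against 1 and 2 negative cells. Cthrc1 and Pcsk6 were detected together in 10 traced and 2 negative cells. Scara5 was thus detected in few traced cells, whereas Tcf21 and Pcsk6 were detected in more of them.

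A mean over genes was taken in each cell to place it between these states. For the study's genes without Postn, 13 in all, traced cells ran from 4.39 to 8.71 with a median of 7.19 and negative cells from 1.74 to 6.22 with a median of 3.28. Of the traced cells, 23 were above every negative cell. The study had shown that list with the negative cells, so this separation is no independent support. The highest negative cell was the one with epicardial markers, and the next was at 5.44. For the 26 fibroblast genes of the uninjured heart, negative cells ran from 3.11 to 8.08 with a median of 6.77 and traced cells from 2.87 to 6.48 with a median of 4.64, and 16 negative cells were above every traced cell. The cell with epicardial markers had the lowest fibroblast mean of the negative class, 3.11, and the one with cardiomyocyte markers had the highest, 8.08. Traced cells with Xist and with a Y-linked gene had medians of 6.98 and 7.66 for the study's genes. For the fibroblast genes of the uninjured heart their medians were 5.07 and 4.05.

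The 6 untraced cells labelled Postn-positive lay across this range. Their Postn ran from 7.54 to 12.07, and their mean over the study's genes was 7.53, 5.34, 4.42, 3.62, 3.44 and 2.50. The highest was within the traced range and the other 5 within the negative range, although 2 of these 5 were also above the lowest traced cell. The lowest held 5 of 6 Schwann cell markers, with Kcna1 at 10.36 and S100b at 8.71, beside Postn at 12.07. Postn mRNA without a trace therefore went with a wide range of the other genes. In the order of those means, the cells had 3772, 1598, 2838, 2211, 2258 and 1724 genes above 5 TPM, where the lowest traced cell had 2155. The part of gene number in this range was not tested.

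**Figure D5:**
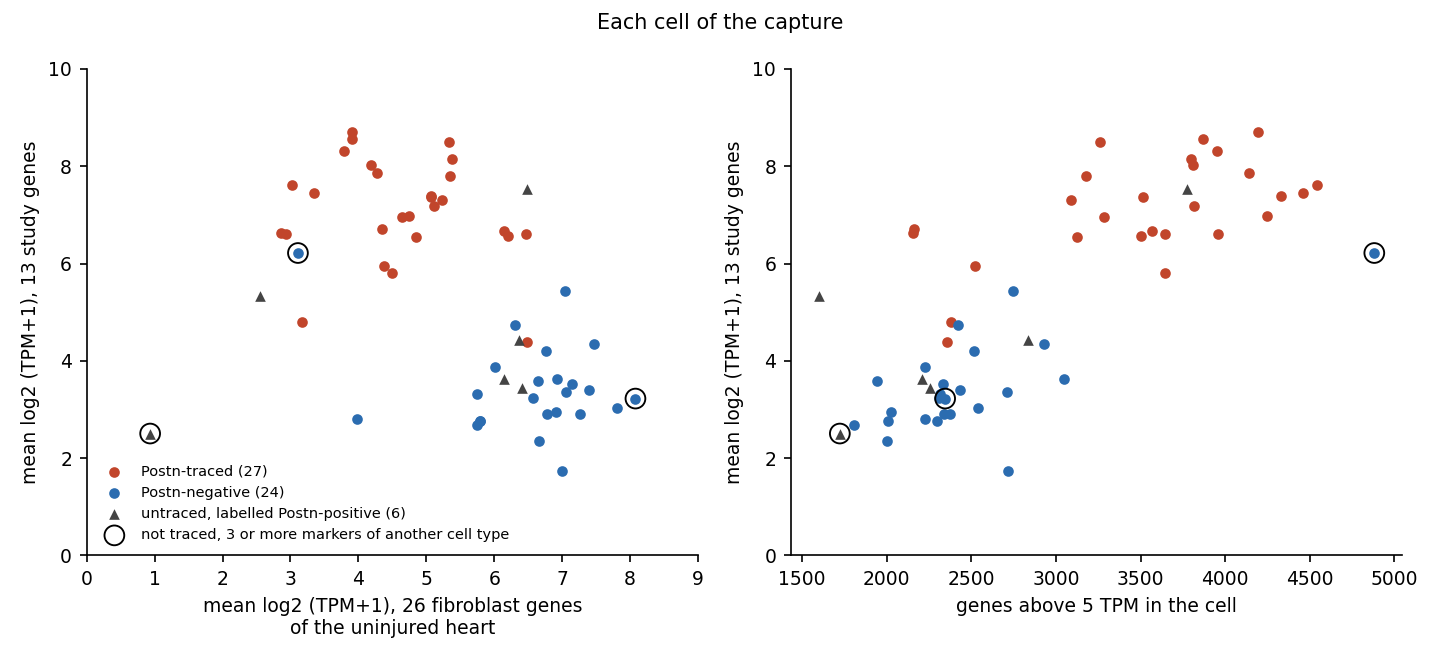
Mean log2 (TPM+1) over 13 study genes without Postn in each of 57 cells, against the mean over 26 fibroblast genes of the uninjured heart (left) and against the number of genes above 5 TPM (right); circled cells are not traced and hold at least 3 markers of another cell type. Traced cells lie at the upper left of the first panel and most negative cells at the lower right, and in the second panel the classes differ in the number of genes as well.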

How the data were processed

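RNA of single cells was amplified by SMARTer chemistry, tagged by Nextera and sequenced by the authors. Per the labels, reads were counted with Bowtie 1.0.0 and eXpress 1.5.1 on mm10. The deposited table, made by the authors, gives log2 (TPM+1) of 17171 genes for each of 185 cells. The header of the table says TPM and its title FPKM, and since the values of a cell add up to between 999256.9 and 1000000, they were read as TPM.

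Class values are means over cells of the deposited values, with the pseudocount of 1 the authors added, and differences are traced minus negative. Of the 185 cells, 128 belonged to other captures and were not used. Genes above 5 TPM in at least 20% of 51 cells were described. A threshold of 2 log2 units stood in for a test, since each class was 1 sample. Genes were named if they had the largest differences or gaps in detection in either direction, were high and nearly equal, or ranked first in a list. Members, the 34 gene lists and the 9 marker lists were chosen with earlier results of these data known. Alternatives changed the pseudocount, the average, the scaling, the filter, the minimum or the cells. Computation used SciPy 1.17.1 and pandas 2.3.3 with NumPy 2.4.6 under Python 3.11.15, and plots used Matplotlib 3.10.9. The calculation was also run on simulated data with no built-in difference in gene number between the classes, so that run does not bear on the counts here.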

Additional observations from a re-analysis of the deposited data

Results flagged for a closer look

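The 6 untraced cells labelled Postn-positive were in neither class. Over the study's genes without Postn, the median difference between these cells and the negative cells was 0.79. The highest of them, at a mean of 7.53 over those genes, lay within the range of traced cells. A sex-linked signal appeared in data that served only as a check of the samples: 11 traced cells held Xist above 5 TPM, and no negative cell did. These differences were not tested.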

How the results depend on the processing

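Of the 226 genes named by the rule, 124 were past 2 log2 units, and 106 of these had 1 sign in all 16 settings. Counts and medians over all genes depended on the setting. With a pseudocount of 0.1, 1560 genes were higher and 151 lower, and with 5, 207 and 51. Medians over cells gave 1335 higher genes. Averaging TPM before the log gave 247 lower genes and a median of 0.019. Centring each cell gave 1232 higher, 56 lower and a median of 1.27. A filter at 50% of cells left 318 higher and 53 lower, as fewer genes were counted, and no filter gave a median of 0.23. Matched pairs gave 544 lower genes and a median of -0.060. Of the alternatives chosen after seeing the data, cells with a Y-linked gene gave 961 higher and 161 lower. Matched pairs without the negative cells with 3 markers of another cell type gave 681 lower and a median of -0.076. Differences relative to the median gave 220 higher and 210 lower, with a median of 0 by construction.

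Over all genes described, 532 of the 638 higher and 97 of the 100 lower genes had the same sign in matched pairs, and 9 of the 638 were more than 2 lower there. Among the named genes past 2 log2 units, the sign in matched pairs was opposite for Ctsk (-0.0044), Pgk1 (-0.54), Plod2 (-1.01), Ndufb9 (-0.24), Col6a3 (-0.46), Atp5c1 (-0.061), Vcl (-0.56), Sdhb (-1.24), Gata6 (-2.43), Ier3 (-0.026), C3 (0.69) and Socs3 (0.53). In the 7 pairs without those negative cells it was opposite for Ctsk (-0.49), Frzb (-0.53), Col8a1 (-0.18), Kdelr3 (-0.15), Vcl (-0.27), Sdhb (-2.43), Gata6 (-2.89), Ctgf (-0.79), C3 (1.74) and Socs3 (1.04). It was opposite for Sdhb (-0.038) and Ctgf (-0.11) when TPM was averaged before the log, and for Ier3 (-1.19) and Ifi27l2a (0.16) in cells with a Y-linked gene. The cause was not tested.

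Leaving out cells with under 50% of the capture's median number of genes removed 0 cells. Reads per cell are not in the files, and the limit of detection of a cell is not known.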
